A study of Saccharomyces cerevisiae with 12 samples.

Results

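The mutant spt15-300 was compared with the wild type SPT15 in cultures grown without ethanol, across all measured yeast genes. The comparison took the 3 arrays titled as mutant in 0% ethanol and 20 g/L glucose and the 3 arrays titled as wild type in the same medium, 6 of the 12 arrays of the series, and 5449 Saccharomyces cerevisiae genes. All cultures were BY4741, a haploid laboratory yeast of mating type a that lacks working copies of HIS3, LEU2, MET17 and URA3. Mutant cultures carried a p416-Tefmut2 plasmid with spt15-300, and wild type cultures carried the same plasmid with SPT15. The chromosomal SPT15 gene was present in both, so the mutant protein was made beside the normal one, and the labels give no more on the promoter of the plasmid than its name. Cells grew at 30 °C in medium without uracil in closed tubes until harvest at an optical density near 0.4. The other 6 arrays are the same strains with 5% ethanol and 60 g/L glucose, called the ethanol medium here, where ethanol and glucose changed together. The labels describe biological triplicates, and nothing says whether the cultures of a group came from separate transformants.

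SPT15 encodes the TATA-binding protein (TBP), which all nuclear RNA polymerases need to start transcription. At genes read by RNA polymerase II it arrives with the TAF proteins of TFIID or with the SAGA complex, is joined by TFIIA and TFIIB, and is removed or blocked by the ATPase Mot1 and by NC2, a complex of Bur6 and Ncb2. Genes with a TATA box, many of them stress or nutrient genes, are known to depend on SAGA and to respond more than others when TBP or its inhibitors are altered.

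Values are log2 of the deposited intensities, so a difference of 1 is a 2-fold change, and a gene counts as called at an adjusted p under 0.05 (limma, Benjamini-Hochberg over all genes). Correlations over the yeast genes were 0.996 to 0.999 among mutant arrays, 0.997 to 0.999 among wild type arrays, and 0.991 to 0.993 between strains. RNA quality was read from 8 control genes with probe sets at both ends of the transcript, and the median of 3' minus 5' signal was 0.266, 0.241 and 0.240 in the mutant, against 0.335, 0.310 and 0.359 in the wild type. Without the probe sets of SPT15 and URA3, which the plasmids carry, the groups overlapped, at 0.381, 0.317 and 0.274 in the mutant and 0.394, 0.310 and 0.371 in the wild type. The part of RNA quality in the results was not tested. The array carries probe sets for Schizosaccharomyces pombe, which give the background: on the 6 arrays their 95th percentile lay between 7.10 and 7.35. LEU2 (8.07 ± 0.14 in the mutant and 7.99 ± 0.10 in the wild type, SD, n = 3 each) and MET17 (7.68 ± 0.17 and 7.82 ± 0.25), of which the strain has no working copy, read close to that level.

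Cells of both strains showed the markers of mating type a. STE2, the receptor for alpha factor, read 12.91 ± 0.025 in the mutant and 13.13 ± 0.026 in the wild type (SD, n = 3 each), and MFA1, which encodes a-factor, read 12.62 ± 0.080 and 12.93 ± 0.067. Markers of mating type alpha were near background, MF(ALPHA)1 at 7.91 ± 0.14 and 8.01 ± 0.29 and MF(ALPHA)2 at 7.65 ± 0.12 and 7.49 ± 0.14, while SAG1 read 9.90 ± 0.057 and 9.92 ± 0.16.

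SPT15 itself read alike in both strains on the probe set that stood for the gene. It gave 13.43, 13.47 and 13.47 in the mutant, against 13.50, 13.47 and 13.45 in the wild type, and the groups overlapped (log2 difference -0.02, adjusted p = 0.801). A separate control probe set at the 3' end of SPT15 read 12.95, 12.97 and 13.00 in the mutant, against 13.09, 13.11 and 13.08 in the wild type, without overlap. The difference of -0.12 was not called in a fit over all 10928 probe sets (adjusted p = 0.175). Another one at the 3' end read 12.93, 13.00 and 13.02 against 13.07, 13.12 and 13.08, also without overlap and not called (-0.11, adjusted p = 0.297). Control probe sets at the middle and 5' end of SPT15 overlapped between the strains. URA3, the marker of the plasmid, read 13.52, 13.54 and 13.52 in the mutant, against 13.45, 13.42 and 13.42 in the wild type, a difference of 0.09 that was not called (adjusted p = 0.0646). The URA3 control probe sets at its 3' end, middle and 5' end also read higher on all 3 mutant arrays, by 0.10, 0.10 and 0.11, and were not called in the fit over all probe sets (adjusted p = 0.314, 0.253 and 0.258). The SPT15 probe sets read the plasmid and the chromosome together, so the level of the mutant transcript alone was not measured.

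The mutant differed from the wild type at 890 of 5449 genes (16.3%), 450 higher (8.26%) and 440 lower (8.07%). The genes that rose moved further than those that fell: the median change was 0.32 among genes called higher and -0.18 among genes called lower. At least 2-fold changes were found in 16 genes that rose and in 0 that fell, and at least 1.5-fold changes in 80 that rose and in 9 that fell. The other 801 called genes changed by under 1.5-fold, and 520 of them by under 1.2-fold. For all 890 called genes the 3 mutant arrays lay entirely on one side of the 3 wild type arrays, which was also so for 15.9% of all genes upward and 26.7% downward. The median change over all genes was -0.03, and with the array medians aligned the calls split into 491 higher and 274 lower, so that 64.2% of them were upward, against 50.6% as deposited. Leaving out 1 array gave 664 calls without wild type replicate 3, 641 without mutant replicate 1, 464 and 478 without wild type replicates 1 and 2, and 454 and 472 without mutant replicates 2 and 3. In each of these 6 fits, 238 of the 450 and 143 of the 440 genes were called in the same direction. With the array titled as an outlier in the fit, which belongs to the mutant in the ethanol medium, 13 genes were called (1663 genes had an unadjusted p under 0.05 without that array and 172 with it).

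**Figure D1:**
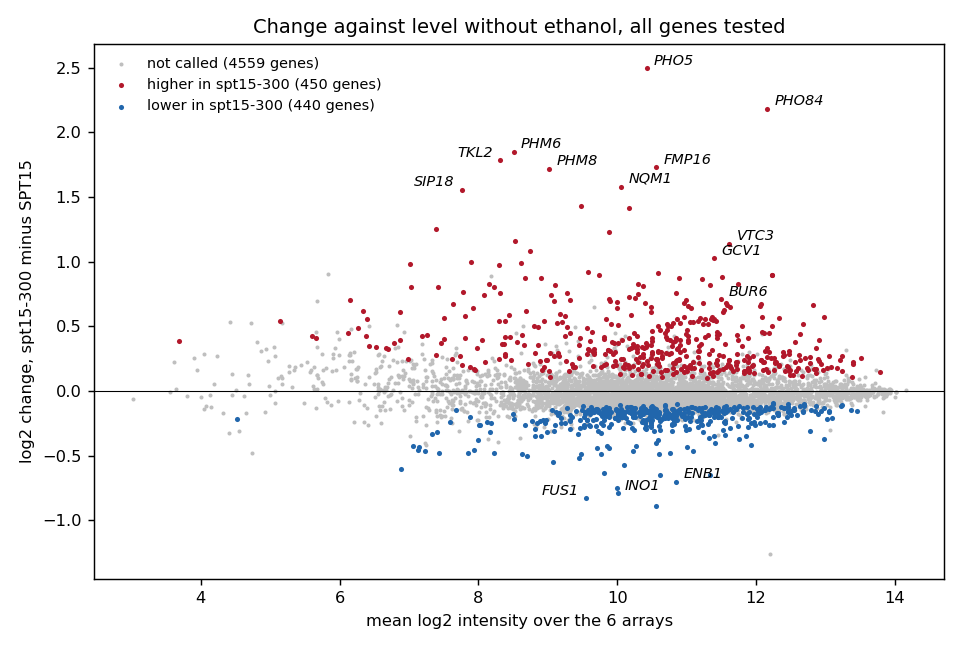
Change between the strains without ethanol (log2, spt15-300 minus SPT15) against the mean log2 intensity over the 6 arrays, 1 point per gene, coloured where called (450 higher, 440 lower). The rising genes reach 2.49, while no called gene fell by more than 0.89.

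The 3 largest rises were those of PHO5, PHO84 and PHM6, all in the phosphate regulon. Yeast cells short of phosphate activate Pho4, which turns on secreted phosphatases, the transporter Pho84 and the enzymes that store phosphate as polyphosphate in the vacuole. PHO5, the main secreted acid phosphatase, read 11.63, 11.71 and 11.67 in the mutant, against 9.14, 9.09 and 9.30 in the wild type, a 5.64-fold rise (log2 2.49 ± 0.083 SE, adjusted p = 1.69e-07). PHO84, the high-affinity transporter, read 13.26 ± 0.041 in the mutant, against 11.07 ± 0.16 in the wild type (SD, n = 3 each), a 4.54-fold rise (log2 2.18 ± 0.070 SE, adjusted p = 1.69e-07). The gap between the strains was in both genes many times the spread within a strain. Of 5 phosphatases measured, 4 rose, against the 8.26% of all genes, with a median of 1.41. PHO11, another secreted acid phosphatase, rose by 1.41 (adjusted p = 3.08e-06), though its probe set is shared with near-identical sequences. PHM8, a soluble phosphatase that acts on nucleotides, read 9.65, 10.02 and 9.98 in the mutant, against 8.13, 8.13 and 8.23 in the wild type, a 3.29-fold rise. PHO8, the alkaline phosphatase of the vacuole, rose 1.48-fold (log2 0.56, adjusted p = 3.41e-05). The exception was PHO3, the neighbour of PHO5 on the chromosome and an acid phosphatase that does not depend on phosphate, which read 12.55, 12.53 and 12.47 in the mutant and 12.59, 12.57 and 12.53 in the wild type (adjusted p = 0.471).

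Polyphosphate genes followed, 4 of 8 higher with a median of 0.33, against -0.03 over all genes. VTC1, VTC3 and VTC4 encode parts of the vacuolar complex that makes polyphosphate. VTC3 read 12.17, 12.19 and 12.20 in the mutant, against 11.01, 11.01 and 11.12 in the wild type, a 2.20-fold rise (adjusted p = 1.56e-06). VTC4, the catalytic subunit, rose 1.58-fold (adjusted p = 5.91e-06) and VTC1 rose 1.48-fold (adjusted p = 6.99e-06). VTC2, which takes the place of VTC3 in another form of the complex, was not called (11.77, 11.90 and 11.81 in the mutant, against 11.74, 11.69 and 11.75 in the wild type, adjusted p = 0.151). PHM6, induced by low phosphate and without a known function, read 9.56, 9.47 and 9.27 in the mutant, against 7.52, 7.43 and 7.81 in the wild type, where it lay near background (log2 1.85, adjusted p = 3.41e-05). The polyphosphatases PPX1 and PPN1 were not called (-0.11 and -0.12, adjusted p = 0.0644 and 0.0708), and neither was DDP1 (-0.01, adjusted p = 0.921).

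Transporters and regulators of phosphate moved less. Among 9 genes of transport, PHO84 and PHO86 rose (22.2%, against 8.26% of all genes). PHO86, which lets Pho84 leave the endoplasmic reticulum, rose by 0.27 (adjusted p = 0.0126, and 0.054 without wild type replicate 2). The low-affinity transporters PHO87 (-0.20) and PHO90 (0.05), the vacuolar PHO91 (-0.07), the sodium-coupled PHO89 (0.13), the glycerophosphoinositol permease GIT1 (0.10), SYG1 (-0.10) and SND3 (0.02) were not called, with adjusted p from 0.0851 for PHO87 to 0.836 for PHO90. Of 10 regulators 4 rose (40%). PHO81, the inhibitor of the Pho80-Pho85 kinase, read 10.99, 10.98 and 10.98 in the mutant, against 10.51, 10.44 and 10.50 in the wild type (log2 0.50, adjusted p = 9.82e-05). SPL2, which holds back low-affinity phosphate uptake, rose by 0.44 (adjusted p = 0.000168). PHO4, the transcription factor, rose by 0.26 (adjusted p = 0.0171), and the call was lost without wild type replicate 3 (0.0547) or mutant replicate 2 or 3 (0.0615 and 0.0589). PHO92, below background in both strains, had a call (adjusted p = 0.0383) that ended in 5 of the 6 fits without 1 array, with 2 regulators left without mutant replicate 2 or 3. The kinase PHO85 (-0.15, adjusted p = 0.0551), its cyclin PHO80 (-0.10), the partner of Pho4 PHO2 (-0.06), VIP1 (0.19), KCS1 (0.03) and GDE1 (0.00) were not called.

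**Figure D2:**
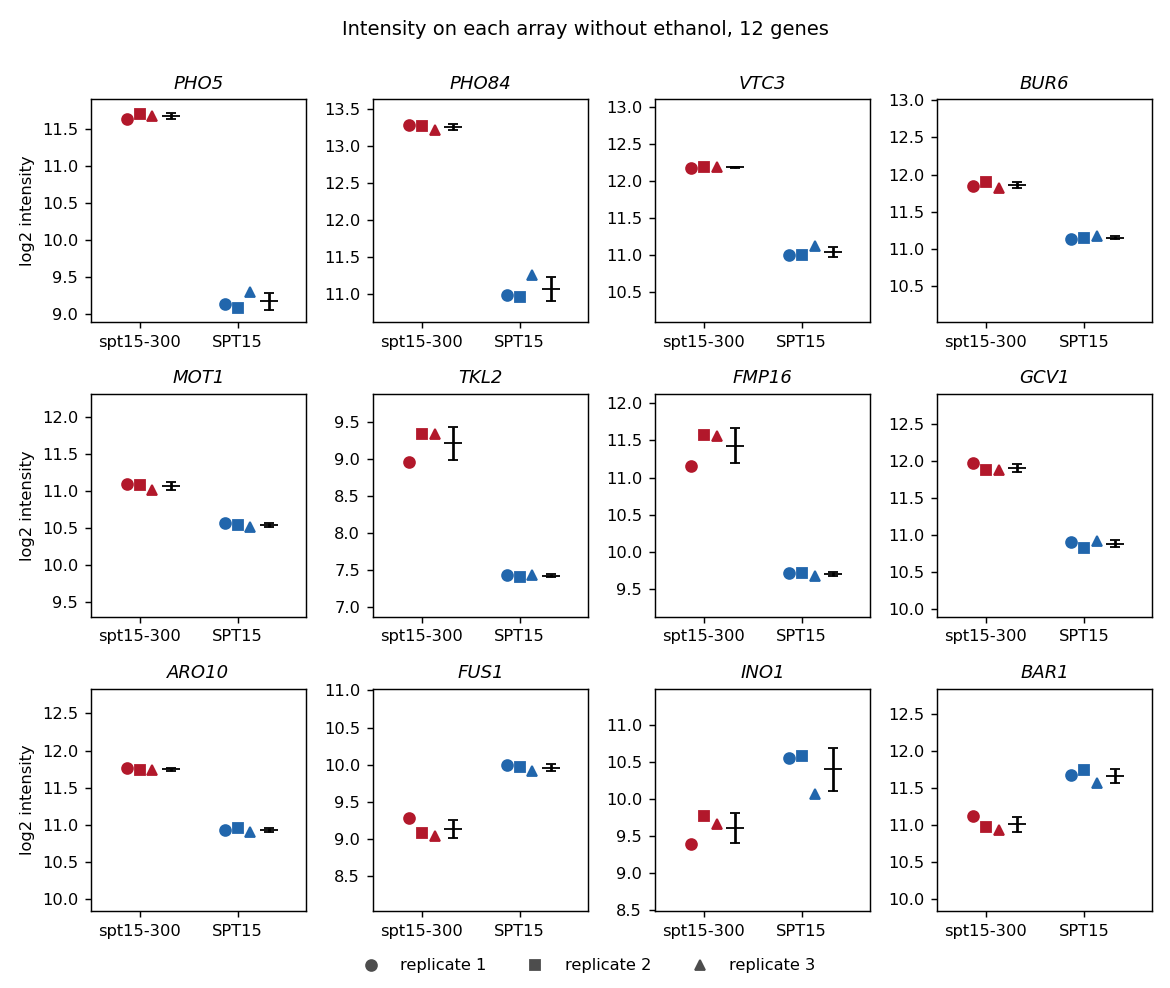
Log2 intensity on each array for 12 genes, with spt15-300 cultures left and SPT15 cultures right. Symbols are replicates, and bars are means with SD (n = 3), over a range of 3 log2 units in every panel. PHO5 and PHO84 show the widest gaps, the mutant's replicate 1 is lowest in TKL2 and FMP16, and FUS1, INO1 and BAR1 are lower in the mutant.

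Inhibitors of TBP itself were among the genes that rose. In the list of TBP and its partners 3 of 12 genes were called higher (25%, against 8.26% of all genes). BUR6, a subunit of NC2, read 11.85, 11.90 and 11.82 in the mutant, against 11.12, 11.15 and 11.17 in the wild type, a 1.63-fold rise (log2 0.71 ± 0.044 SE, adjusted p = 1.25e-05). MOT1, the ATPase that removes TBP from DNA, read 11.10, 11.09 and 11.01 in the mutant, against 10.57, 10.54 and 10.51 in the wild type, a 1.44-fold rise (log2 0.53 ± 0.069 SE, adjusted p = 0.00094). NCB2, the other subunit of NC2, read 11.86, 11.80 and 11.78 in the mutant, against 11.64, 11.59 and 11.61 in the wild type (log2 0.20, adjusted p = 0.0128, and 0.0548 without wild type replicate 2). None of the 3 genes overlapped between the strains. The other 9 of 12 genes in the list of TBP and its partners were not called: TOA1 and TOA2 of TFIIA (-0.06 and -0.07), SUA7, which is TFIIB (0.00), BRF1 of the RNA polymerase III factor TFIIIB (-0.16), SPT3 and SPT8 of SAGA (-0.05 and 0.01), the RNA polymerase I factor RRN3 (0.15), TAF1 (0.01) and SPT15. In the ethanol medium BUR6 and MOT1 were called higher in the mutant too, by 0.39 (adjusted p = 0.00361) and 0.63 (adjusted p = 0.00304), and NCB2 was not, at 0.10 (adjusted p = 0.197).

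In the other lists of the transcription machinery the shares called were below those of all genes (8.26% higher and 8.07% lower). The counts are small, and a difference from these shares was not tested. Of 14 TAF genes 0 were called by limma, and 2 were lower at an unadjusted p under 0.05. SAGA had 1 of 15 higher and 1 lower: SGF11 of its deubiquitinating module rose by 0.37 (adjusted p = 0.0082), and HFI1 fell by 0.16 (adjusted p = 0.042) but was called in none of the 6 fits without 1 array (0.0657 to 0.151). Among 36 genes of Mediator and RNA polymerase II, MED6 rose by 0.31 (adjusted p = 0.00221) and SRB2 fell by 0.32 (adjusted p = 0.00113), while MED2 fell by 0.18 with a call that ended in 5 of those fits. Among 36 genes of RNA polymerases I and III, MAF1, the repressor of RNA polymerase III, read 10.44, 10.50 and 10.47 in the mutant, against 10.02, 10.01 and 10.05 in the wild type (log2 0.45, adjusted p = 3.19e-05). TFC7 of TFIIIC rose by 0.20 (adjusted p = 0.0033), and TFC8 of the same factor fell by 0.16 (adjusted p = 0.0356) but was called in none of those fits (0.0541 to 0.125).

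The general stress response, the genes that Msn2 and Msn4 turn on when growth is disturbed, held more rising genes than any other list described here. Of 44 measured, 28 rose (63.6%, against 8.26% of all genes) and 0 fell, with a median of 0.52. At an unadjusted p under 0.05, 33 rose and 0 fell. TKL2, a transketolase, read 8.95, 9.33 and 9.33 in the mutant, against 7.43, 7.41 and 7.43 in the wild type, a 3.44-fold rise (log2 1.78, adjusted p = 0.000117). FMP16, a mitochondrial protein without a known role, read 11.16, 11.57 and 11.56 in the mutant, against 9.71, 9.72 and 9.67 in the wild type, a 3.32-fold rise (adjusted p = 0.000355). NQM1, a transaldolase of quiescent cells, rose 2.99-fold (adjusted p = 1.17e-05). HSP26, a small heat shock protein, rose 1.86-fold, at 12.49, 12.76 and 12.78 in the mutant and 11.78, 11.84 and 11.71 in the wild type (adjusted p = 0.000201). Hydrophilins, small proteins that protect dry cells, rose as well: SIP18 read 8.20, 8.78 and 8.65 in the mutant, against 6.87, 6.85 and 7.25 in the wild type, where it lay near background, and GRE1 rose 2.11-fold (adjusted p = 0.000983). ALD3, an aldehyde dehydrogenase, rose 2.70-fold (adjusted p = 0.00406) and RTN2, a reticulon of the endoplasmic reticulum, rose 2.35-fold (adjusted p = 0.00481).

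In these genes the mutant cultures differed among themselves. Replicate 1 was the lowest of the 3 mutant arrays in all 28 stress genes that rose, against 228 of the 450 genes called higher overall. The median member stood 0.30 above the wild type mean in mutant replicate 1, 0.62 in replicate 2 and 0.61 in replicate 3, against 0.02, 0.02 and -0.04 in wild type replicates 1, 2 and 3. The median SD of a stress gene was 0.153 among mutant arrays and 0.0468 among wild type arrays, while over all genes these were 0.0491 and 0.0444. The count of rising stress genes was 17 without mutant replicate 2 or 3 and 31 without mutant replicate 1. PHO84 and PHM6 were highest in mutant replicate 1, while PHM8 and PHO5 were lowest in it.

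**Figure D3:**
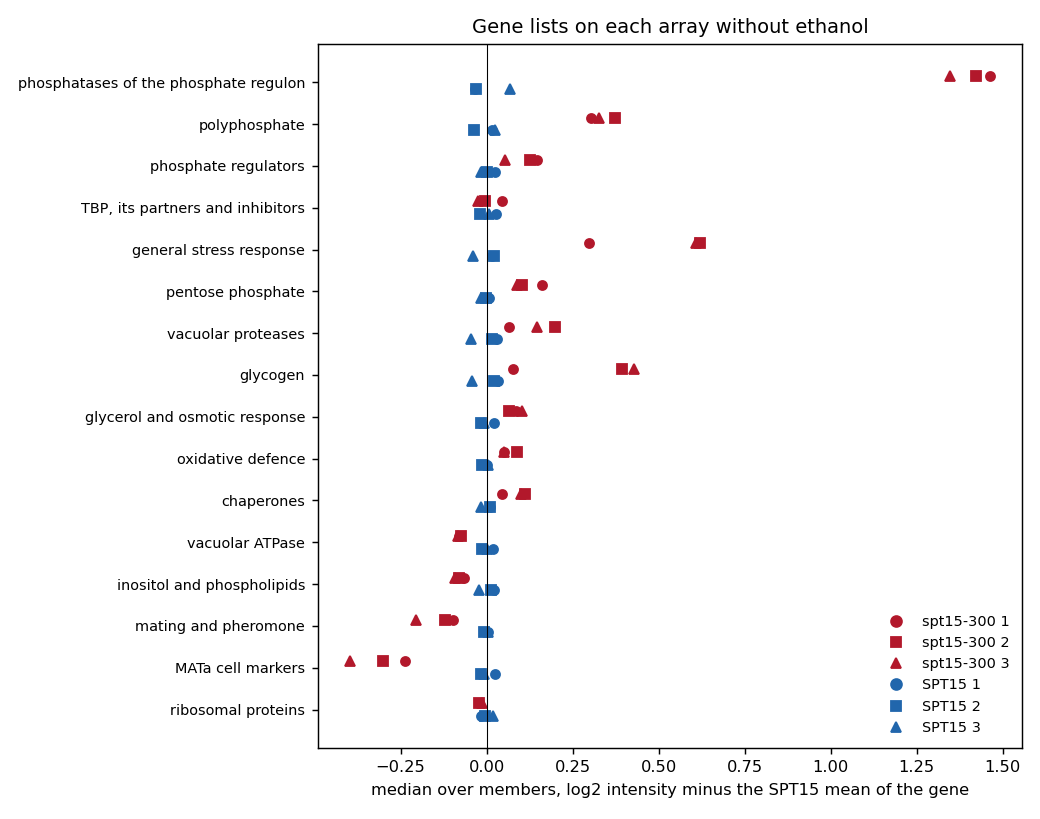
Median over the members of 16 gene lists on each array (log2 intensity minus the SPT15 mean of each gene), with spt15-300 arrays above SPT15 arrays in each row. In the general stress list mutant replicate 1 stands at 0.30 and replicates 2 and 3 at 0.62 and 0.61. The phosphatases lie between 1.35 and 1.46 on all 3 mutant arrays, where the median of the 5 genes is the value of PHO11. Mutant replicate 1 was the lowest mutant array in 3 of the 4 rising phosphatases.

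Lists that overlap with the stress response rose in part, against 8.26% higher and 8.07% lower over all genes. Glycogen metabolism had 5 of 13 higher and 1 lower, with SGA1, a glucoamylase, at 8.93, 9.20 and 9.19 in the mutant, against 7.98, 7.95 and 7.91 in the wild type (2.24-fold, adjusted p = 0.000361), IGD1, an inhibitor of glycogen breakdown, at 1.86-fold (adjusted p = 0.00396) and GAC1, a subunit of the phosphatase that activates glycogen synthase, at 0.83 (log2, adjusted p = 0.00882). Without the lowest 25% of genes, which takes dim members such as SGA1 off the list, 2 glycogen genes were called higher. Glycerol and osmotic response genes had 8 of 21 higher and 0 lower. GPP2, which makes glycerol, read 13.11, 13.17 and 13.16 in the mutant, against 12.52, 12.46 and 12.48 in the wild type (1.58-fold, adjusted p = 1.25e-05). GPD1, the enzyme before it, rose 1.31-fold (adjusted p = 0.000226), and GRE2, a reductase, rose 1.45-fold (adjusted p = 8.98e-05). Oxidative defence had 12 of 34 higher and 1 lower. SRX1, which repairs oxidised peroxiredoxins, rose 1.83-fold (adjusted p = 4.65e-05), PRX1, the peroxiredoxin of mitochondria, rose 1.56-fold (adjusted p = 0.000328), SOD2, the superoxide dismutase of mitochondria, rose 1.43-fold (adjusted p = 0.000158), and GSH2, of glutathione synthesis, fell by 0.24 (adjusted p = 0.00136).

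Chaperones had 8 of 31 higher (25.8%, against 8.26% of all genes) and 0 lower. HSP31 rose 1.54-fold (adjusted p = 0.000201) and SSE2 rose by 0.57 (log2, adjusted p = 0.00705). The pentose phosphate pathway had 6 of 14 higher and 1 lower, led by TKL2 and NQM1, and vacuolar proteases and their regulators 5 of 12 higher, among them the protease PRB1 (0.33, adjusted p = 0.00368). Without mutant replicate 2 or 3 these counts were lower: 3 for chaperones, 3 for the pentose phosphate pathway, 3 for vacuolar proteases, 5 for glycerol and osmotic genes and 7 for oxidative defence. Counts that also fell without a wild type array were chaperones (4 without any of its 3 arrays), the pentose phosphate pathway (3 without replicate 1 or 2) and glycerol and osmotic genes (5 without replicate 1). Mutant replicate 1 was the lowest mutant array in all 8 rising chaperone genes, all 8 rising osmotic genes, all 5 rising glycogen genes, all 5 rising vacuolar protease genes and 11 of the 12 rising oxidative genes.

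**Figure D4:**
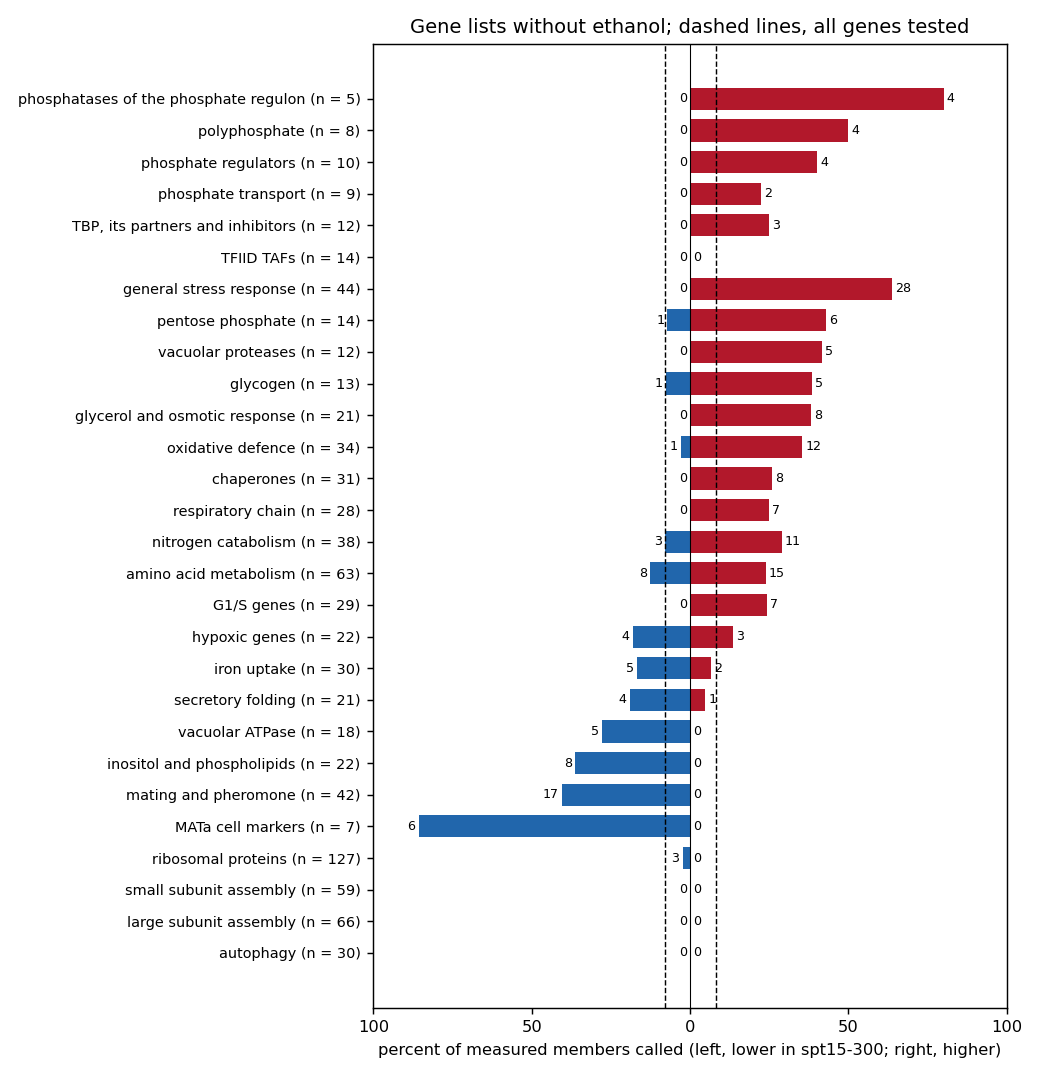
Percent of the measured members of 28 gene lists called lower (left) or higher (right) in spt15-300 than in SPT15 without ethanol, with the number of called members at each bar end and dashed lines at 8.07% and 8.26% for all genes. Stress and phosphate lists extend to the right, mating lists to the left, and ribosome assembly, TAF and autophagy lists have no called member.

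Amino acid metabolism changed in both directions, 15 of 63 higher (23.8%) and 8 lower (12.7%), with a median of 0.00. Over all genes these shares were 8.26% and 8.07%. The rising genes included the glycine cleavage system, which splits glycine into carbon dioxide, ammonia and a methylene group. GCV1 read 11.97, 11.88 and 11.88 in the mutant, against 10.90, 10.83 and 10.91 in the wild type, a 2.04-fold rise (log2 1.03 ± 0.040 SE, adjusted p = 4.77e-07). GCV2 rose 1.77-fold (adjusted p = 0.000201). ARO10 and ARO9, of the pathway that turns aromatic amino acids into fusel alcohols, rose 1.76-fold and 1.59-fold (adjusted p = 6.99e-06 and 1.75e-05), ARO10 reading 11.76, 11.73 and 11.74 in the mutant, against 10.93, 10.96 and 10.90 in the wild type. LYS1, of lysine synthesis, rose 1.24-fold (adjusted p = 0.000301). HIS6, of histidine synthesis, and SER3, of serine synthesis, fell by 0.24 and 0.28 (adjusted p = 0.00163 and 0.00179). The number of falling genes was 2 without any 1 wild type array or without mutant replicate 3, 3 without mutant replicate 2, and 4 with array medians aligned.

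Genes that bring in or break down nitrogen sources had 11 of 38 higher (28.9%) and 3 lower (7.89%), against 8.26% and 8.07% of all genes. MEP3, an ammonium permease, read 11.59, 11.64 and 11.65 in the mutant, against 11.14, 11.09 and 10.98 in the wild type (1.47-fold, adjusted p = 6.47e-05). CAR2, of arginine breakdown, rose 1.48-fold (adjusted p = 0.00256), AGP1, an amino acid permease, rose 1.36-fold (adjusted p = 0.000895) and DAL3, of allantoin breakdown, rose by 0.59 (adjusted p = 0.00406). The peptide transporters PTR2 and OPT2 fell by 0.37 and 0.33 (adjusted p = 0.00406 and 0.00705). Single arrays stood apart in this list too: of the 11 rising genes, mutant replicate 1 was the lowest mutant array in 7 and wild type replicate 3 the lowest wild type array in 9, and the part of these arrays was not tested. In the list of thiamine and NAD synthesis 6 of 30 rose (20%) and 3 fell (10%), with members of the kynurenine route to NAD on both sides. BNA4 read 10.67, 10.78 and 10.79 in the mutant, against 10.05, 10.05 and 10.11 in the wild type (1.60-fold, adjusted p = 6.47e-05), while BNA1, a later enzyme of the same route, read 11.75, 11.72 and 11.70 in the mutant, against 12.11, 12.13 and 12.18 in the wild type (log2 -0.42, adjusted p = 0.000193).

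Hexose transport and respiratory genes rose in part. Hexose transport and its control had 5 of 21 higher and 1 lower (8.26% of all genes were higher). HXT5, the transporter of slowly growing cells, read 8.85, 9.26 and 9.24 in the mutant, against 8.09, 8.15 and 8.13 in the wild type (1.99-fold, adjusted p = 0.0013), HXT4 rose 1.44-fold (adjusted p = 0.00527), MTH1, a repressor of transporter genes, rose by 0.43 (adjusted p = 0.000354), and the glucose sensor RGT2 fell by 0.25 (adjusted p = 0.00229). Without the lowest 25% of genes, which takes dim members off a list, 2 hexose transport genes were called higher. The respiratory chain had 7 of 28 higher and 0 lower, with a median of 0.07. CYC1, cytochrome c, read 12.27, 12.29 and 12.28 in the mutant, against 11.97, 11.96 and 11.98 in the wild type (log2 0.31, adjusted p = 0.000639), QCR2 rose by 0.26 (adjusted p = 0.00115) and NDE2, an external NADH dehydrogenase, by 0.74 (adjusted p = 0.00407). That count was 4 without wild type replicate 1 or 2 or mutant replicate 2, and mutant replicate 1 was the lowest mutant array in 6 of the 7 genes. Among hypoxic genes 3 of 22 rose (13.6%) and 4 fell (18.2%), against 8.26% and 8.07% of all genes. TIR3, a cell wall protein, rose 1.66-fold (adjusted p = 1.78e-05), and ANB1, the hypoxic form of the translation factor eIF5A, fell by 0.44 (adjusted p = 0.000911), with 1 higher and 1 lower left without the lowest 25% of genes and 1 higher after a repeated quantile normalization.

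Further genes among the 20 highest do not fall in one group. AQY1, a water channel, read 8.69, 8.86 and 8.80 in the mutant, against 7.76, 7.76 and 7.92 in the wild type (1.96-fold, adjusted p = 8.73e-05), and COS12 of the subtelomeric COS family rose 1.99-fold from near background (adjusted p = 6.1e-05). POT1, the thiolase of fatty acid oxidation, read 7.34, 7.59 and 7.61 in the mutant, against 6.71, 6.48 and 6.40 in the wild type, where it lay below background, so that no size of the rise is given. BSC1 read 8.44, 8.13 and 7.45 in the mutant, against 6.68, 6.54 and 7.05 in the wild type, a rise of at least 1.69-fold with a wide spread in the mutant. HUG1, which restrains ribonucleotide reductase after DNA damage, rose by 0.88 (adjusted p = 6.1e-05), and RNR2, a subunit of that enzyme, rose by 0.27 (adjusted p = 0.00055). They are 2 of the 3 rising genes among 17 of the DNA damage list (17.6%, against 8.26% of all genes).

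The falling genes were led by mating. Haploid cells of mating type a keep a basal level of pheromone signalling genes, which the transcription factor Ste12 controls. Of 42 measured genes 17 fell and 0 rose (19 fell and 0 rose at an unadjusted p under 0.05), against 8.07% of all genes, with a median of -0.13. FUS1, needed for cells to fuse, read 9.13 ± 0.13 in the mutant, against 9.96 ± 0.042 in the wild type, without overlap (SD, n = 3 each, log2 -0.83 ± 0.061 SE, adjusted p = 3.41e-05). BAR1, the protease that destroys alpha factor, read 11.12, 10.98 and 10.93 in the mutant, against 11.68, 11.75 and 11.57 in the wild type (log2 -0.65, adjusted p = 9.39e-05). PRM5, induced by pheromone, fell by 0.63 (adjusted p = 0.000584), KAR4, a transcription factor of mating, by 0.49 (adjusted p = 0.00179) and AGA1, which anchors the agglutinin, by 0.57 (adjusted p = 0.00179). FAR1, which stops the cell cycle on pheromone, fell by 0.36 (adjusted p = 0.00343). Without the lowest 25% of genes, which takes dim members such as STE3 off the list, 11 mating genes were called lower.

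Of the 7 marker genes of mating type a, 6 fell (85.7%, against 8.07% of all genes), with a median of -0.31. All 7 also belong to the mating list above, so they are not a separate group. ASG7 read 9.47, 9.50 and 9.50 in the mutant, against 9.96, 9.93 and 9.92 in the wild type (log2 -0.44, adjusted p = 8.05e-05). STE6, the exporter of a-factor, fell by 0.25 (adjusted p = 0.00393), AGA2, the agglutinin, by 0.35 (adjusted p = 0.00832), STE2 by 0.22 (adjusted p = 0.00882) and MFA1 by 0.31 (adjusted p = 0.0251, a call that ended in 5 of the 6 fits without 1 array). MFA2, at 13.40, 13.35 and 13.26 in the mutant and 13.49, 13.40 and 13.45 in the wild type, was not called (adjusted p = 0.257). STE3, a marker of the opposite mating type, fell by 0.24 from a level near background (adjusted p = 0.00926).

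Inositol and phospholipid genes were the next group to fall, 8 of 22 lower (36.4%, against 8.07% of all genes) and 0 higher, with a median of -0.09. INO1, the first enzyme of inositol synthesis, read 9.39, 9.78 and 9.67 in the mutant, against 10.56, 10.58 and 10.07 in the wild type (1.73-fold lower, adjusted p = 0.00382), with both strains spread widely. CKI1, choline kinase, fell by 0.27 (adjusted p = 0.00458), and INO4, an activator of these genes, by 0.23 (adjusted p = 0.0241), a call that ended in each fit without 1 array except that without mutant replicate 2 (0.0648 to 0.0771). The count of 8 depended on the arrays and on the scale: it was 2 without wild type replicate 1 or 2 or mutant replicate 3, 3 without mutant replicate 2, 5 without mutant replicate 1 or wild type replicate 3, and 4 with array medians aligned. Genes of the vacuolar ATPase had 5 of 18 lower and 0 higher, with VMA5 at -0.18 (adjusted p = 0.00936). That count was 1 to 3 without 1 array, lowest without wild type replicate 1 or mutant replicate 2 or 3, and 2 with array medians aligned.

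Iron uptake had 5 of 30 lower (16.7%) and 2 higher (6.67%), against 8.07% and 8.26% of all genes. ENB1, a transporter of the siderophore enterobactin, read 10.47, 10.56 and 10.48 in the mutant, against 11.29, 11.27 and 11.05 in the wild type (1.63-fold lower, adjusted p = 9.17e-05), and FRE6, a vacuolar ferric reductase, fell by 0.29 (adjusted p = 0.00804). FIT2, a cell wall protein that holds siderophores, read 9.86, 10.53 and 10.50 in the mutant, against 11.05, 11.06 and 10.74 in the wild type (adjusted p = 0.0311), which was not called without wild type replicate 1 or 2 (0.111 and 0.104). The number of lower iron genes was 2 without wild type replicate 1 and 3 without wild type replicate 2. In all 5 falling iron genes wild type replicate 3 was the lowest wild type array and mutant replicate 1 the lowest mutant array.

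Several of the 20 lowest genes stand alone. YBL005W-A, a Gag gene of the retrotransposon Ty1 whose probe set is shared with other copies, read 10.44, 9.87 and 10.02 in the mutant, against 11.10, 11.09 and 10.81 in the wild type, the largest fall of a called gene at -0.89 (adjusted p = 0.00807). MHT1, a methyltransferase of methionine metabolism, read 8.95, 8.78 and 8.68 in the mutant, against 9.34, 9.33 and 9.40 in the wild type (log2 -0.55, adjusted p = 0.000301). YCL021W-A, without a known function, fell by 0.75 (adjusted p = 0.000611), YJL218W by 0.52 (adjusted p = 0.000179), YGL039W, an aldehyde reductase, by 0.48 (adjusted p = 7.3e-05), PDH1, of propionate metabolism, by 0.50 (adjusted p = 0.00185) and the sterol transporter AUS1 by 0.49 (adjusted p = 0.00794). SSP1, of spore formation, fell by 0.49 (adjusted p = 0.000911), while CRR1, of the spore wall, was near background in both strains. HOP1 of meiotic chromosomes (-0.48), HOT13 of mitochondria (-0.49) and SRO77 of secretion (-0.48) had calls that ended without 1 array: HOP1 without mutant replicate 3 (adjusted p = 0.0548), HOT13 without any of 4 arrays (0.0541 to 0.0689, namely mutant replicates 2 and 3 and wild type replicates 1 and 3) and SRO77 without any 1 array but mutant replicate 2 (0.0584 to 0.110).

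Groups tied to ribosomes and autophagy had few or no calls, against 8.26% higher and 8.07% lower over all genes. Ribosomal protein genes had 3 of 127 lower and 0 higher (5 lower and 0 higher at an unadjusted p under 0.05), among them RPS9A at -0.27 (adjusted p = 0.00168), and 1 was lower without mutant replicate 3. By limma 0 of 59 genes of the small subunit processome and 0 of 66 of large subunit assembly were called, with 0 and 1 at an unadjusted p under 0.05. Autophagy had 0 of 30 called (6 at an unadjusted p under 0.05), and mitochondrial ribosomal proteins 1 of 65, higher, a call held in 1 of the 6 fits without 1 array. Outside these, the G1/S list, genes of entry into S phase, had 7 of 29 higher and 0 lower, with the kinase inhibitor SIC1 at 0.39 (adjusted p = 0.000919) and the cyclin CLB6 at 0.29 (adjusted p = 0.00302), and 2 to 4 without 1 array, lowest without replicate 2 of either strain. Secretory folding genes had 4 of 21 lower (19.0%) and 1 higher (4.76%), with PDI1, protein disulfide isomerase, at 0.21 (adjusted p = 0.00483) and its relative EUG1 at -0.30 (adjusted p = 0.00517). The number of lower ones was 1 without wild type replicate 1 or mutant replicate 3, and 2 without wild type replicate 2 or mutant replicate 1 or with array medians aligned.

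The strain effect was set beside that in the ethanol medium, which rests on 2 mutant and 3 wild type arrays. The 2 differences share no array, but both use the spread per gene from the same fit over 11 arrays. Their calls are therefore not independent, and the overlaps below are a description. Calls in the ethanol medium were 638 of 5449 genes (11.7%), 312 higher (5.73%) and 326 lower (5.98%). Of the genes called higher without ethanol, 154 were also called higher in the ethanol medium, which is 34.2% of the 450 and 49.4% of the 312. Of those called lower, 101 were called lower in both, which is 23.0% of the 440 and 31.0% of the 326. Opposite calls were made for 5 and 5 genes. Whatever the call, 381 of the 450 (84.7%) had a positive change in the ethanol medium, against 48.3% of all genes, and 342 of the 440 (77.7%) a negative one, against 51.7% of all genes. Across the 890 called genes the changes in the 2 media correlated at 0.68, and across all 5449 at 0.44, where genes are not independent replicates. The number called in the ethanol medium was 72 without replicate 3 of its mutant, 184 without replicate 2 of its wild type and 1326 without replicate 3 of its wild type, and the overlaps were not recomputed without these arrays.

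The interaction, the strain effect without ethanol minus that in the ethanol medium, was called for 66 genes (1.21%), 45 with a positive and 21 with a negative value, and 16 of them kept their call in each of the 11 fits without 1 array. The phosphate genes led it. PHO5 changed by 2.49 without ethanol and 0.00 in the ethanol medium (interaction 2.50, adjusted p = 8.16e-06), PHO84 by 2.18 and -0.04 (2.22, adjusted p = 8.16e-06), VTC3 by 1.14 and 0.03 (1.11, adjusted p = 9.21e-05) and PHM6 by 1.85 and -0.02 (1.87, adjusted p = 0.00257). PHO11 changed in opposite directions, by 1.41 without ethanol and -0.39 in the ethanol medium (interaction 1.80, adjusted p = 2.38e-05). In the wild type these genes read higher in the ethanol medium than without ethanol, by 2.44 for PHO5, 2.49 for PHO84, 1.26 for PHO11, 1.51 for VTC3 and 2.60 for PHM6, a comparison that shares the wild type arrays without ethanol. GCV1 (1.03 and 0.27, interaction 0.75, adjusted p = 0.00024) and MCR1, a reductase of mitochondria (0.50 and -0.02, interaction 0.52, adjusted p = 0.00292), were further members of the 10 with the smallest p. YCR102C changed by -0.48 and 0.19 (interaction -0.67, adjusted p = 0.000524). All of these kept the interaction call in each fit without 1 array.

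For most of the mating genes that fell, no difference between the media was called. The mating list had 13 of 42 members lower and 0 higher in the ethanol medium, with a median of -0.12, where 5.98% of all genes were lower. All but 1 of the 7 mating type a markers were called lower there. FUS1 changed by -0.83 and -0.57, BAR1 by -0.65 and -0.61, KAR4 by -0.49 and -0.49 and PRM5 by -0.63 and -0.88, without a called interaction (adjusted p from 0.186 for FUS1 to 0.982 for KAR4). AGA1 changed by -0.57 without ethanol and 0.10 in the ethanol medium (interaction adjusted p = 0.0381, up to 0.128 without 1 array). The general stress list had 5 of 44 higher in the ethanol medium with a median of 0.18, where 5.73% of all genes were higher. A called interaction was found for 2 genes of the stress list. TKL2 of that list changed by 1.78 and 1.02, and HXT5 of the hexose transport list changed by 0.99 and 1.13. The respiratory chain had 7 of 28 genes higher without ethanol, and in the ethanol medium 3 higher and 9 lower.

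**Figure D5:**
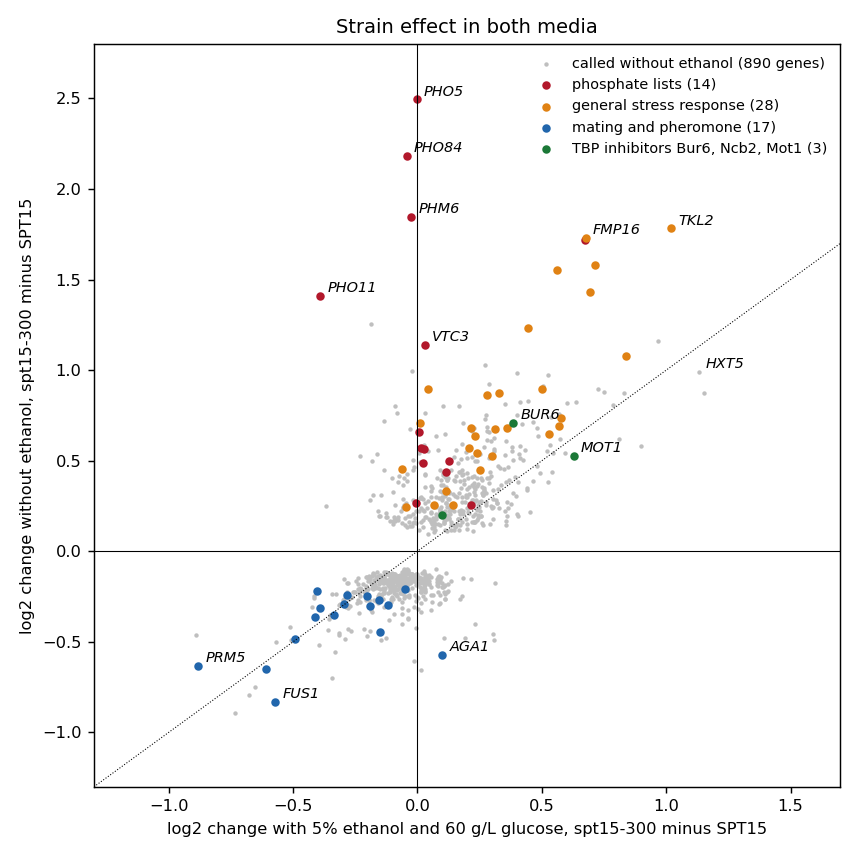
Strain effect without ethanol (vertical) against that in the ethanol medium (horizontal), both as log2 of spt15-300 minus SPT15, for the 890 genes called without ethanol. The dotted line marks equal change. Phosphate genes such as PHO5 (2.49 and 0.00) lie on the vertical axis, while mating genes such as FUS1 (-0.83 and -0.57) and the TBP inhibitor MOT1 (0.53 and 0.63) lie near the dotted line.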

How the data were processed

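Total RNA was measured on Affymetrix Yeast Genome 2.0 arrays. The authors deposited 1 linear intensity per probe set, made with RMA per the submitters' processing notes (no version or settings are stated there). RMA aligns arrays, so a shift shared by most genes is removed before any test. Here log2 was taken with no pseudocount, the probe set with the highest mean stood for a gene, and limma 3.58.1 in R 4.3.3 fitted 1 mean per group over 11 arrays, which share 1 estimate of the spread. The array titled as an outlier was left out. P-values were adjusted by Benjamini-Hochberg over 5449 genes.

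The number of arrays limits the precision. P-values set each difference against the spread between cultures within groups, estimated over all 11 arrays, those of the ethanol medium included. A gene was dim in a group with no array above the 95th percentile of the Schizosaccharomyces pombe probe sets, and its fold is then a bound. Named genes are the 20 highest and 20 lowest called genes measured in at least 1 strain, up to 5 called members per direction of each list, all members of the phosphate and TBP lists, the mating type markers and the 10 interaction genes with the smallest p. The comparison and the lists were chosen with earlier results of these data known. Replicate numbers did not pair the cultures (correlations of same-numbered deviations 0.138, -0.247 and -0.0895). Alternatives were other array sets, weights, scaling, filters, a trended fit and leaving out each array. Promoter and protein sequences were not used here.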

Additional observations from a re-analysis of the deposited data

Results flagged for a closer look

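Each value here is the strain effect without ethanol minus that in the ethanol medium (log2, limma, adjusted p under 0.05), for genes named in the report or by the rule for naming. A called difference between the media means that the strain effects themselves differed by this test. Of all 66 called, 16 kept the call in each of the 11 fits without 1 array. Some genes below lie near the threshold, such as SRB2 and PRX1 (limma adjusted p = 0.0497 each) and SPL2 (0.0469). The phosphate genes had PHO84 at 2.22, PHO5 at 2.50, PHO11 at 1.80, PHM6 at 1.87, VTC3 at 1.11, PHM8 at 1.04, VTC4 at 0.65, VTC1 at 0.56, PHO8 at 0.54, PHO81 at 0.37 and SPL2 at 0.32. Stress and redox genes had NQM1 at 0.87, HSP26 at 0.85, PRX1 at 0.53, MCR1 at 0.52 and GPP2 at 0.38.

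Amino acid and NAD genes had GCV1 at 0.75, ARO10 at 0.46, BNA4 at 0.45 and ARO9 at 0.44, and HIS6 at -0.33 and SER3 at -0.34 ran the other way. Respiratory genes had CYC1 at 0.49, TIM11, a subunit of the ATP synthase, at 0.38, QCR2 at 0.31 and QCR9 at 0.26. Hexose genes had HXT4 at 0.76 and MTH1 at 0.40. Surface and mating genes had TIR3 at 0.46, TIP1 at -0.34, AGA1 at -0.67 and ASG7 at -0.29, and the transporters AUS1 and QDR2 had -0.80 and -0.48. The remaining genes were COS12 at 1.02, CLN1, a G1 cyclin, at 0.35, SPS4 at 0.31, MAF1 at 0.27, SRB2 at -0.32, YGL039W at -0.35 and YCR102C at -0.67.

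Among 47 reporter probe sets outside the gene table, which carry no gene name here, 10 read above the Schizosaccharomyces pombe percentile on all 6 arrays. In the fit over all probe sets 5 were called higher in the mutant, by 1.05, 0.46, 0.69 and 0.54 for 4 that share an identifier and by 0.73 for another, and 1 was called lower. Of all 10928 probe sets in that fit, 471 were called.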

How the results depend on the processing

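No named gene that was called changed its direction in any alternative run. For each called gene the mutant arrays all lay on one side of the wild type arrays. Leaving out or weighting arrays could therefore not reverse it. Of the 237 named genes called without ethanol, 142 were called in each of the 6 fits without 1 array, 202 in each of the other 7 alternatives with 11 or 6 arrays, 11 with all 12 arrays and 237 with array weights. The 890 genes called without ethanol (450 higher, 440 lower) became 13 (12 and 1) with all 12 arrays and 2729 (1181 and 1548) with all 12 arrays under array weights, where the array titled as an outlier had a weight of 0.00412. Without ethanol that fit leaned on replicate 2, weighted 10.6 in the mutant and 6.38 in the wild type. The other arrays of these groups had weights of 1.05 to 2.72. Aligned array medians gave 274 lower, and the 6 arrays alone gave 671 lower. Leaving out 1 array gave 454 to 664 calls, 254 to 378 higher and 163 to 305 lower. In the ethanol medium 638 genes were called, 0 by limma with all 12 arrays (570 at an unadjusted p under 0.05), and 72 to 1326 without 1 array. The interaction count of 66 was 3 with all 12 arrays, 486 with array weights and 16 to 448 without 1 array. The replicate number as a block gave 1030 calls without ethanol (509 higher and 521 lower), 552 in the ethanol medium and 46 for the interaction, and not every culture correlated best with its own number. The causes of these changes were not tested. Genes near the Schizosaccharomyces pombe level are limited by signal over background: 184 genes were dim in both strains.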

Other observations

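Chromosomal neighbours of the genes that rose were set beside neighbours of all genes. The share of neighbours called higher was 12.5% for genes called higher, 27 of 143 (18.9%) for those that rose at least 1.5-fold and 9 of 32 (28.1%) for the 20 highest, against 8.11% for all genes. These shares were not tested. Pairs chosen after their values were seen are VTC3 with CTF19, a kinetochore gene that read 8.56, 8.71 and 8.62 in the mutant, against 7.79, 7.76 and 7.94 in the wild type (log2 0.80, limma adjusted p = 1.81e-05), and SGA1 with XBP1, a stress-induced repressor (log2 0.74, adjusted p = 0.00224). Other neighbours moved apart: CYC1 rose by 0.31 beside ANB1 at -0.44, MOT1 rose by 0.53 beside RPS9A at -0.27, and PHO84 rose by 2.18 beside the tubulin gene TUB3 at -0.24.

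Split into 4 bins of gene length from short to long, 9.98%, 9.99%, 8.81% and 4.26% of the genes were called higher, and 6.16%, 8.96%, 11.2% and 5.95% lower. Among genes known by a systematic name only, 55 of 499 were called higher, against 395 of 4950 named ones (7.98%).

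ZPS1, a zinc-regulated surface protein chosen after its values were seen, had a larger fall than any called gene but was not called. It read 10.65, 12.08 and 11.97 in the mutant, against 13.05, 13.04 and 12.42 in the wild type (log2 -1.27, limma adjusted p = 0.0628), with a wide spread in both strains and no overlap.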
